A study of Mus musculus with 58 samples.

Results

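Reactive astrocyte genes are genes that astrocytes switch on when brain tissue is damaged. The 10 genes described here (Gfap, Vim, Serpina3n, Lcn2, Steap4, Cd44, Osmr, S1pr3, Aqp4 and Gap43) were chosen by symbol, and all 10 were among the 15171 genes counted in 58 mice. RNA was sequenced from the hippocampus and cortex at the injury site, which were frozen together, 14 days after surgery. All mice were 3 months old at surgery, were of the C57BL/6 background and carried human APOE in place of the mouse gene, as APOE3 (E3) or APOE4 (E4), with both functional copies of the lipid transporter gene Abca1 (Abca1+/+) or with a single copy (Abca1+/-). The skull was opened over the left parietal cortex in all mice, and a controlled cortical impact, a metal tip driven onto the exposed cortex, was then given to the TBI mice but not to the sham mice. The labels describe each sample as 1 mouse, so p-values measure the spread between these mice. The groups were E3/Abca1+/+ sham (n = 8) and TBI (n = 8), E3/Abca1+/- sham (n = 7) and TBI (n = 6), E4/Abca1+/+ sham (n = 7) and TBI (n = 7), and E4/Abca1+/- sham (n = 7) and TBI (n = 8). Each group held males and females. Since the APOE replacement and the craniotomy were shared by all mice, the comparisons concern the isoform, the number of Abca1 copies and the impact.

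Astrocytes respond to injury by enlarging their cytoskeleton of intermediate filaments, by secreting acute phase proteins, and by placing cytokine and matrix receptors on their surface. Much of this response runs through the IL-6 family of cytokines, whose receptors activate the transcription factor STAT3, and it is strongest near the lesion, where astrocytes form a border around damaged tissue. None of the 10 genes is made by astrocytes alone: Vim is also found in vessels and microglia, Cd44 and Lcn2 in leukocytes, and Gap43 in neurons. Bulk tissue cannot tell more cells of a type from more RNA per cell.

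The libraries held between 4421308 and 37877346 counts each. The Abca1+/- libraries were deeper (median 18871446, n = 28) than the Abca1+/+ libraries (median 8350020, n = 30), so that a comparison of Abca1 copies is also a comparison of depths. Abca1 itself was lower in E3/Abca1+/- than in E3/Abca1+/+ sham mice (35.3 ± 3.84 against 48.5 ± 6.92 CPM, SD; log2 fold change −0.45, adjusted p = 0.00933, edgeR quasi-likelihood test). The log2 fold change was −0.35 in APOE4 sham (adjusted p = 0.0783), −0.71 in APOE3 TBI (adjusted p = 0.118) and −0.19 in APOE4 TBI mice (adjusted p = 0.724), none of which passed the threshold, and single mice of the genotypes overlapped in all 4 comparisons. The 15 listed genes of resting astrocytes were all measured, at a summed 8287 to 10142 CPM in sham mice. Their presence in bulk tissue does not show which cells made the 10 genes. The library of E4/Abca1+/- sham replicate 2, a male, stood apart from its group: it had the highest level of its group for 9 of the 10 genes (all but Gap43), the highest of all sham mice for 7, and the highest summed microglia markers of all sham mice (565 CPM, against a group median of 443). The results that it changes most are given with and without it. CPM stands for counts relative to the library total, scaled with edgeR's TMM factors.

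The promoters of 8 members were available in RefSeq (GRCm38.p6), as windows from 250 bases before to 50 bases after a transcript start. A STAT motif (TTCNNNGAA on either strand) lay in the windows of Gfap and Steap4, which is 2 of 8 windows against 8.30% of all 32851 windows. An AP-1 motif (TGANTCA) lay in that of Osmr (1 of 8, against 7.81% of all). NF-kB motifs, by name, lay in those of Vim and Steap4 (2 of 8, against 4.51%), and a TATA motif (TATAAA on either strand) also in those of Vim and Steap4 (2 of 8, against 13.6%). The TATA motif of Vim lay at −32 from the start, on the strand of the gene. That of Steap4 lay at −215, on the opposite strand. The windows of Serpina3n, Lcn2, Cd44 and S1pr3 held none of these motifs. A match is a string of letters and not a measured binding site. The stretches below show the motifs of Gfap, Steap4 and Osmr, and the window upstream of Serpina3n, the member that differed between APOE isoforms. They are written 5′ to 3′ on the strand of the gene, and capitals mark the motifs. In the Steap4 stretch the capitals are, in order, 2 NF-kB motifs and a TATA motif, all 3 on the opposite strand, and a STAT motif, which reads the same on both strands.
Gfap, chr11:102897171-102897300, minus strand: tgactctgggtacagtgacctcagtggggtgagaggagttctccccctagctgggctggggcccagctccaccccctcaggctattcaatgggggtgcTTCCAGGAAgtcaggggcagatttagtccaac
Steap4, chr5:7960222-7960371, plus strand: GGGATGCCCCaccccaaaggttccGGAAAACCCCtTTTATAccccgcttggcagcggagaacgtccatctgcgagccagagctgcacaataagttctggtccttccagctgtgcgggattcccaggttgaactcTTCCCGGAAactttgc
Osmr, chr15:6874284-6874413, minus strand: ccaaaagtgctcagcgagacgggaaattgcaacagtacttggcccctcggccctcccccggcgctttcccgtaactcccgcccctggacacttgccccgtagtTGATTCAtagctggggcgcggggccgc
Serpina3n, chr12:104406558-104406707, plus strand: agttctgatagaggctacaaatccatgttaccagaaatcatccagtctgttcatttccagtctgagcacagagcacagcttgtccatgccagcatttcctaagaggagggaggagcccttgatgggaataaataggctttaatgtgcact

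To ask how injury changed these genes, TBI and sham mice were compared within each genotype with edgeR's quasi-likelihood test, at a Benjamini-Hochberg adjusted p under 0.05 over all genes. In each of the 4 genotypes 9 of the 10 genes were higher after TBI and 0 were lower, and the exception was Gap43 in all 4. Among all genes, 12.5% were higher after TBI in E3/Abca1+/+, 13.7% in E3/Abca1+/-, 9.08% in E4/Abca1+/+ and 17.7% in E4/Abca1+/- mice. Their log2 fold changes had a median of 2.19, 2.17, 1.99 and 2.23 in the same order, while the median over all genes lay between −0.0043 and 0.0082. Together the 10 genes made up a mean of 0.0710% to 0.0963% of all counts in the sham groups and 0.255% to 0.359% in the TBI groups.

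**Figure D1:**
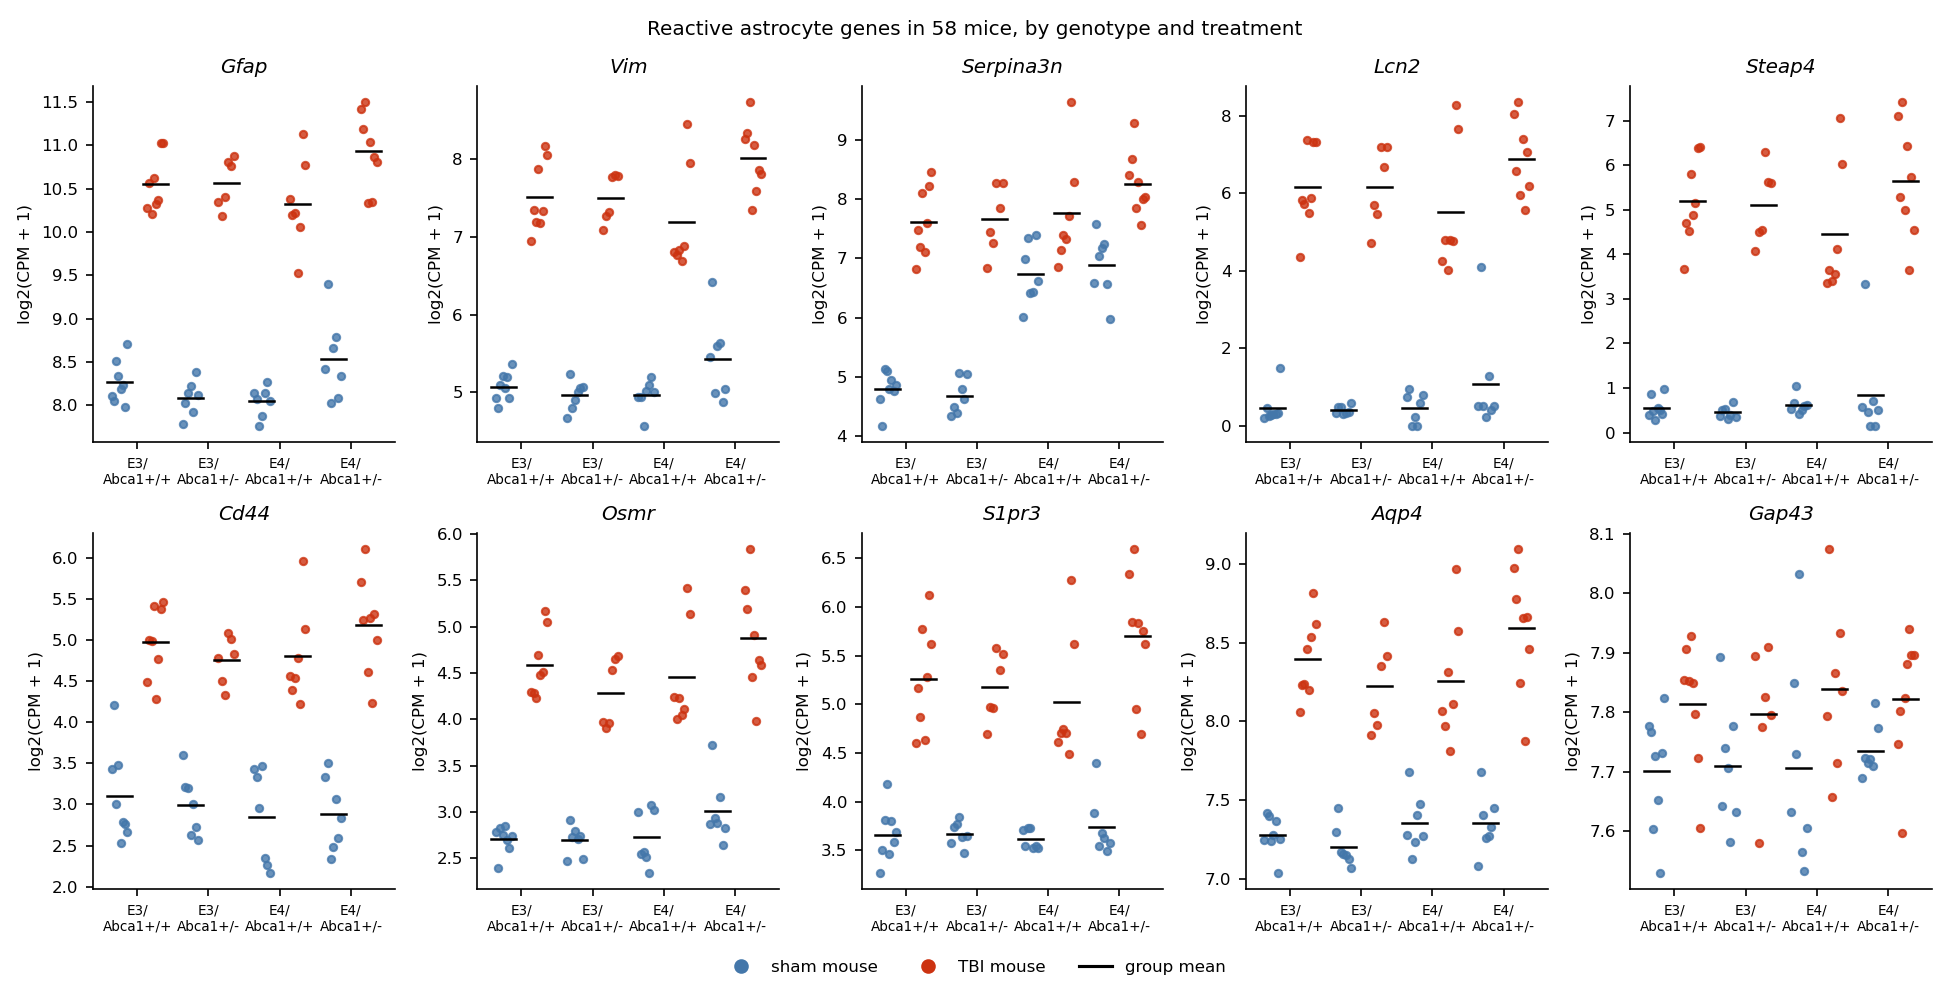
Level of each of the 10 genes in every mouse, as log2(CPM + 1) on the y axis, by genotype on the x axis (blue points, sham; red points, TBI; black lines, group means). The red points lie above the blue points for 7 genes across all mice, while those of Serpina3n overlap in APOE4 mice, a single TBI mouse falls below the highest sham mouse for Lcn2, and those of Gap43 overlap in every genotype.

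Gfap (gene 14580, chr11:102887336-102897200) encodes the intermediate filament protein by which astrocytes are usually identified. In sham mice it ranged from 252 to 416 CPM (median 296) in E3/Abca1+/+, from 219 to 334 (median 276) in E3/Abca1+/-, from 216 to 306 (median 269) in E4/Abca1+/+ and from 259 to 673 (median 343) in E4/Abca1+/- mice. After TBI the ranges were 1178 to 2084 CPM (median 1419), 1159.5 to 1876 (median 1542), 739 to 2231 (median 1191) and 1286 to 2886 (median 1980.1) in the same order. Every TBI mouse was above every sham mouse, whatever the genotype. The log2 fold change was 2.29 (SE 0.13, adjusted p = 1.03e-09) in E3/Abca1+/+, 2.49 (SE 0.12, adjusted p = 3.49e-09) in E3/Abca1+/-, 2.35 (SE 0.18, adjusted p = 1.74e-06) in E4/Abca1+/+ and 2.37 (SE 0.22, adjusted p = 1.10e-06) in E4/Abca1+/- mice, all from edgeR. Gfap had the smallest p of the 10 genes in the effect of injury averaged over genotypes (2.39, SE 0.09, adjusted p = 3.84e-28, edgeR).

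Vim (gene 22352, chr2:13574311-13582826) encodes vimentin, another filament protein that is low in resting astrocytes. Its sham levels ranged from 22.8 to 40.1 CPM in the 3 other genotypes and from 28.2 to 84.7 (median 42.8) in E4/Abca1+/- mice. After TBI it ranged from 123 to 287 CPM (median 161) in E3/Abca1+/+, 135 to 222 (median 188) in E3/Abca1+/-, 102 to 349 (median 113) in E4/Abca1+/+ and 162 to 425 (median 261) in E4/Abca1+/- mice. As for Gfap, the TBI and sham mice did not overlap in any genotype or over all mice. The log2 fold change was 2.52, 2.60, 2.41 and 2.55 in the same order, and 2.53 (SE 0.12, adjusted p = 3.82e-25, edgeR) averaged over genotypes.

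Lcn2 (gene 16819, chr2:32384637-32387739) encodes lipocalin 2, a secreted protein that binds iron carriers of bacteria, and was low without injury. Sham levels ranged from 0.155 to 1.79 CPM (median 0.237) in E3/Abca1+/+, 0.229 to 0.501 (median 0.282) in E3/Abca1+/-, 0 to 0.934 (median 0.501) in E4/Abca1+/+ and 0.164 to 16.1 (median 0.419) in E4/Abca1+/- mice. Only 2 sham mice had no count, both E4/Abca1+/+, for which a floor of 3 counts allows up to 0.430 and 0.639 CPM (counting error only). After TBI the ranges were 19.3 to 166 CPM (median 56.4), 25.4 to 146 (median 76.4), 15.3 to 310.0 (median 26.8) and 46.0 to 325 (median 113) in the same order. E4/Abca1+/- sham replicate 2, at 16.1 CPM, was above a single injured mouse, at 15.3 CPM, and no other sham mouse exceeded 1.79. The log2 fold change was 7.82 (SE 0.63), 7.98 (SE 0.53), 7.30 (SE 1.06) and 5.59 (SE 0.77), with adjusted p between 2.92e-08 and 0.000232 (edgeR). Without E4/Abca1+/- sham replicate 2 the last of these was 8.03.

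Steap4 (gene 117167, chr5:7960472-7982213) encodes a metalloreductase that reduces iron and copper at membranes. It was at 0.109 to 1.05 CPM in all sham mice but E4/Abca1+/- sham replicate 2, which had 9.04. After TBI it ranged from 11.8 to 83.8 CPM (median 31.6) in E3/Abca1+/+, 16.0 to 77.4 (median 34.9) in E3/Abca1+/-, 9.30 to 133 (median 11.5) in E4/Abca1+/+ and 11.6 to 169 (median 45.0) in E4/Abca1+/- mice. All TBI mice were above all sham mice, but the injured mice spread over an 18.2-fold range. The log2 fold change was 6.38, 6.66, 5.97 and 5.27 in the same order (SE 0.51, 0.44, 0.89 and 0.79), and the last was 7.45 without E4/Abca1+/- sham replicate 2.

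The 3 receptors of the list rose in every genotype, with log2 fold changes between 1.61 and 2.46. Cd44 (gene 12505, chr2:102811141-102901669), the main cell surface receptor for the matrix polymer hyaluronan, ranged from 3.51 to 17.6 CPM in sham and from 17.7 to 67.8 in TBI mice. Osmr (gene 18414, chr15:6813568-6874968), the receptor subunit for the IL-6 family cytokine oncostatin M, ranged from 4.08 to 12.2 CPM in sham and from 14.0 to 56.3 in TBI mice. S1pr3 (gene 13610, chr13:51408618-51422797), a receptor for the signalling lipid sphingosine 1-phosphate, ranged from 8.66 to 20.1 CPM in sham and from 21.4 to 95.7 in TBI mice. For each of them the lowest injured mouse was above the highest sham mouse. In E3/Abca1+/+, E3/Abca1+/-, E4/Abca1+/+ and E4/Abca1+/- mice the log2 fold change was 1.88, 1.84, 2.06 and 2.46 for Cd44. It was 2.09, 1.79, 1.92 and 2.04 for Osmr and 1.74, 1.62, 1.61 and 2.09 for S1pr3. The adjusted p of these 12 values was at most 0.000443 (edgeR).

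Aqp4 (gene 11829, chr18:15389394-15410982), the water channel of astrocyte endfeet around vessels, was abundant in sham mice (131 to 204 CPM) and changed least among the 9 genes that rose. Injured mice had 224 to 545 CPM, with medians of 326, 295, 275 and 403 in the 4 genotypes, so that all of them were again above all sham mice. The log2 fold change was 1.11, 1.04, 0.94 and 1.25, and 1.10 averaged over genotypes (SE 0.07, adjusted p = 2.37e-20, edgeR). On a linear scale this average was 2.14-fold.

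Gap43 (gene 14432, chr16:42248552-42340651), a protein of growing axons, stood apart from the other 9 genes. It had 184 to 261 CPM in sham and 190.4 to 269 in TBI mice, and 1 of 29 injured mice was above all sham mice. Within genotypes the log2 fold change was 0.10, 0.09, 0.12 and 0.06, with adjusted p from 0.192 to 0.349 (edgeR). Averaged over genotypes in a fit of all 58 mice, the difference was 0.11 (SE 0.03) and passed the threshold (adjusted p = 0.00306, edgeR), as 29.0% of all genes did in the higher direction. After all libraries were thinned to the smallest one, it was 0.08 and did not pass (adjusted p = 0.0877, with 0.00289 to 0.0877 over the alternatives). The 95% interval of the average difference was 0.05 to 0.17 on the log2 scale.

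**Figure D2:**
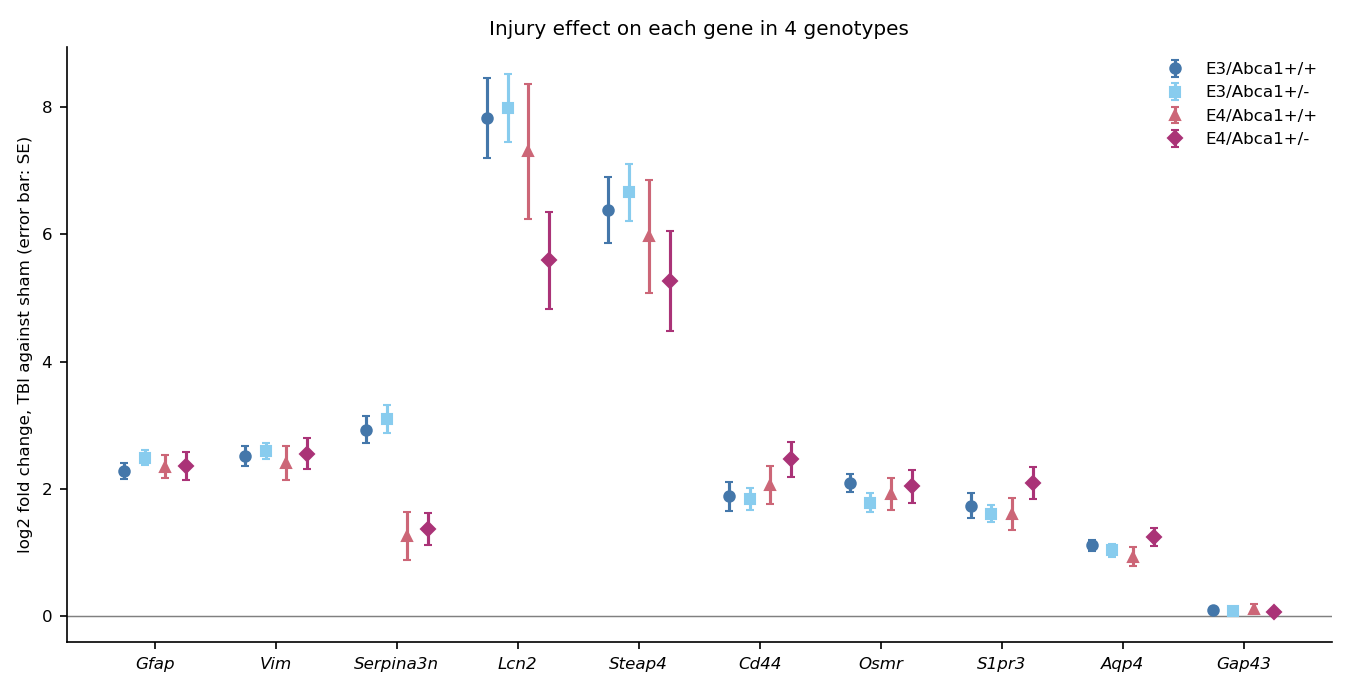
Log2 fold change of TBI against sham mice (y axis) for each of the 10 genes (x axis) in the 4 genotypes (symbols; error bars, SE from edgeR). Lcn2 and Steap4 rose most, Serpina3n rose by 2.93 and 3.09 in APOE3 but by 1.26 and 1.37 in APOE4 mice, and Gap43 stayed near 0.

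In counts of mice, all injured mice were above all sham mice of the same genotype for 9 genes in both APOE3 genotypes and for 8 genes in both APOE4 genotypes. The gene that overlapped in APOE4 but not in APOE3 mice was Serpina3n. Such separation was found for 4.36%, 6.57%, 3.76% and 7.36% of all genes in E3/Abca1+/+, E3/Abca1+/-, E4/Abca1+/+ and E4/Abca1+/- mice. Over all mice, irrespective of genotype, it held for 7 of the 10 genes and for 1.05% of all genes.

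Levels of different genes were compared per kilobase of the longest transcript. In sham mice the order was Gap43 (148 ± 11.6 CPM per kb, SD, n = 29), Gfap (117 ± 33.7), Serpina3n (34.2 ± 26.2), Aqp4 (31.2 ± 3.60), Vim (11.8 ± 3.87), S1pr3 (2.67 ± 0.497), Cd44 (1.29 ± 0.537), Osmr (1.09 ± 0.276), Lcn2 (0.705 ± 2.14) and Steap4 (0.236 ± 0.510). Without E4/Abca1+/- sham replicate 2 the order was the same, with Lcn2 at 0.311 ± 0.286 and Steap4 at 0.142 ± 0.0702 (n = 28). Neighbours in the order over all 29 mice were apart by more than their SDs for Gfap and Serpina3n, Aqp4 and Vim, Vim and S1pr3, and S1pr3 and Cd44, and the other neighbours overlapped. After TBI Gfap (615 ± 193 CPM per kb, n = 29) led Gap43 (159 ± 12.2), and the ranges of these 2 genes did not overlap. They were followed by Serpina3n (125 ± 72.5), Lcn2 (75.5 ± 63.6), Vim (69.9 ± 28.2) and Aqp4 (67.7 ± 17.1), which overlapped in sequence, then Steap4 (15.0 ± 13.3), S1pr3 (9.47 ± 4.35), Cd44 (5.65 ± 2.23) and Osmr (4.44 ± 1.84). Aqp4 and Steap4 were apart by more than their SDs, and the neighbours from Steap4 to Osmr overlapped. Lcn2 moved from the ninth to the fourth place.

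Serpina3n (gene 20716, chr12:104406646-104414334) encodes a secreted serine protease inhibitor and was the only one of the 10 genes called between APOE isoforms. In sham mice it ranged from 17.1 to 34.1 CPM (median 27.5) in E3/Abca1+/+ and 19.4 to 32.7 (median 23.8) in E3/Abca1+/- mice, against 63.9 to 166 (median 97.1) in E4/Abca1+/+ and 62.4 to 190.0 (median 131) in E4/Abca1+/- mice. All 14 APOE4 sham mice were therefore above all 15 APOE3 sham mice, as for 7 genes of the table (0.0461%). The log2 difference between APOE4 and APOE3 sham mice was 2.04 with both Abca1 copies (SE 0.19, adjusted p = 1.73e-06, edgeR) and 2.31 with a single copy (SE 0.21, adjusted p = 6.66e-06, edgeR). Of all genes, 0.349% and 5.13% were called in these comparisons, and Serpina3n ranked 4 and 6 by p. At an unadjusted p under 0.05 were 2 and 6 of the 10 genes, against 8.75% and 23.2% of all genes, and without E4/Abca1+/- sham replicate 2 the second count was 4. Without E4/Abca1+/- sham replicate 2 the second difference was 2.18 (adjusted p = 8.33e-06, edgeR).

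After TBI this difference did not pass the adjusted threshold with either number of Abca1 copies. With a single copy Serpina3n was still higher in APOE4 mice at an unadjusted p under 0.05 (edgeR). Injured APOE3 mice had 112 to 352 CPM of Serpina3n (median 186, n = 14) and injured APOE4 mice 115 to 794 (median 255, n = 15), so the isoforms overlapped. The log2 difference between APOE4 and APOE3 TBI mice was 0.36 with both Abca1 copies (SE 0.36, adjusted p = 0.961, edgeR; −0.19 without E4/Abca1+/+ TBI replicate 6, adjusted p = 0.888) and 0.59 with a single copy (SE 0.26, adjusted p = 0.233, edgeR). In those comparisons 0 of the 10 genes were called, with 0.211% and 2.90% of all genes called, and 0 and 7 of the 10 had an unadjusted p under 0.05, against 7.20% and 18.7% of all genes. Without E4/Abca1+/+ TBI replicate 6 the first of these counts was 3. DESeq2 and edgeR's exact test also called 0 in both. Averaged over injury and Abca1 copies, the isoform difference of Serpina3n was 1.33 (SE 0.15, adjusted p = 2.24e-09, edgeR, with 15.0% of all genes called), and it was the only member called there.

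The injury effect on Serpina3n was 2.93 (SE 0.21, adjusted p = 9.06e-09) and 3.09 (SE 0.22, adjusted p = 8.23e-08) in the APOE3 genotypes, against 1.26 (SE 0.37, adjusted p = 0.0314) in E4/Abca1+/+ and 1.37 (SE 0.25, adjusted p = 0.000413) in E4/Abca1+/- mice (edgeR). In E4/Abca1+/+ mice 4 of 7 injured mice, and in E4/Abca1+/- mice 7 of 8, were above all sham mice of their genotype. The difference of the injury effect between isoforms was −1.68 with both Abca1 copies (SE 0.45, unadjusted p = 0.000743, adjusted p = 1.00, edgeR) and −1.70 with a single copy (SE 0.35, unadjusted p = 4.59e-05, adjusted p = 0.258, edgeR). It therefore did not pass the threshold over all genes, and 0 genes of the table did, while 2.12% and 6.34% of all genes had an unadjusted p under 0.05. The test that the injury effect was equal in all 4 genotypes gave Serpina3n the smallest p of all genes (1.55e-05), again without passing after adjustment (adjusted p = 0.160, edgeR, 0 genes called).

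Both the injury effect in E4/Abca1+/+ mice and this last test changed without E4/Abca1+/+ TBI replicate 6, a female whose 794 CPM was the highest Serpina3n level of all mice. Without this mouse the test of equal injury effects gave an adjusted p of 0.000126 (edgeR), with a range of 0.000126 to 0.385 over all alternatives. The injury effect in E4/Abca1+/+ mice then fell to 0.71 and was no longer called (adjusted p = 0.0602, edgeR). It also lost its call when any of E4/Abca1+/+ sham replicates 1, 4, 5 and 7 or TBI replicate 7 was left out, with adjusted p from 0.0572 to 0.0669, while the log2 fold change stayed at 1.15 to 1.23. The other 6 mice of the injured group had 115 to 313 CPM, and the sham group 63.9 to 166.

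**Figure D3:**
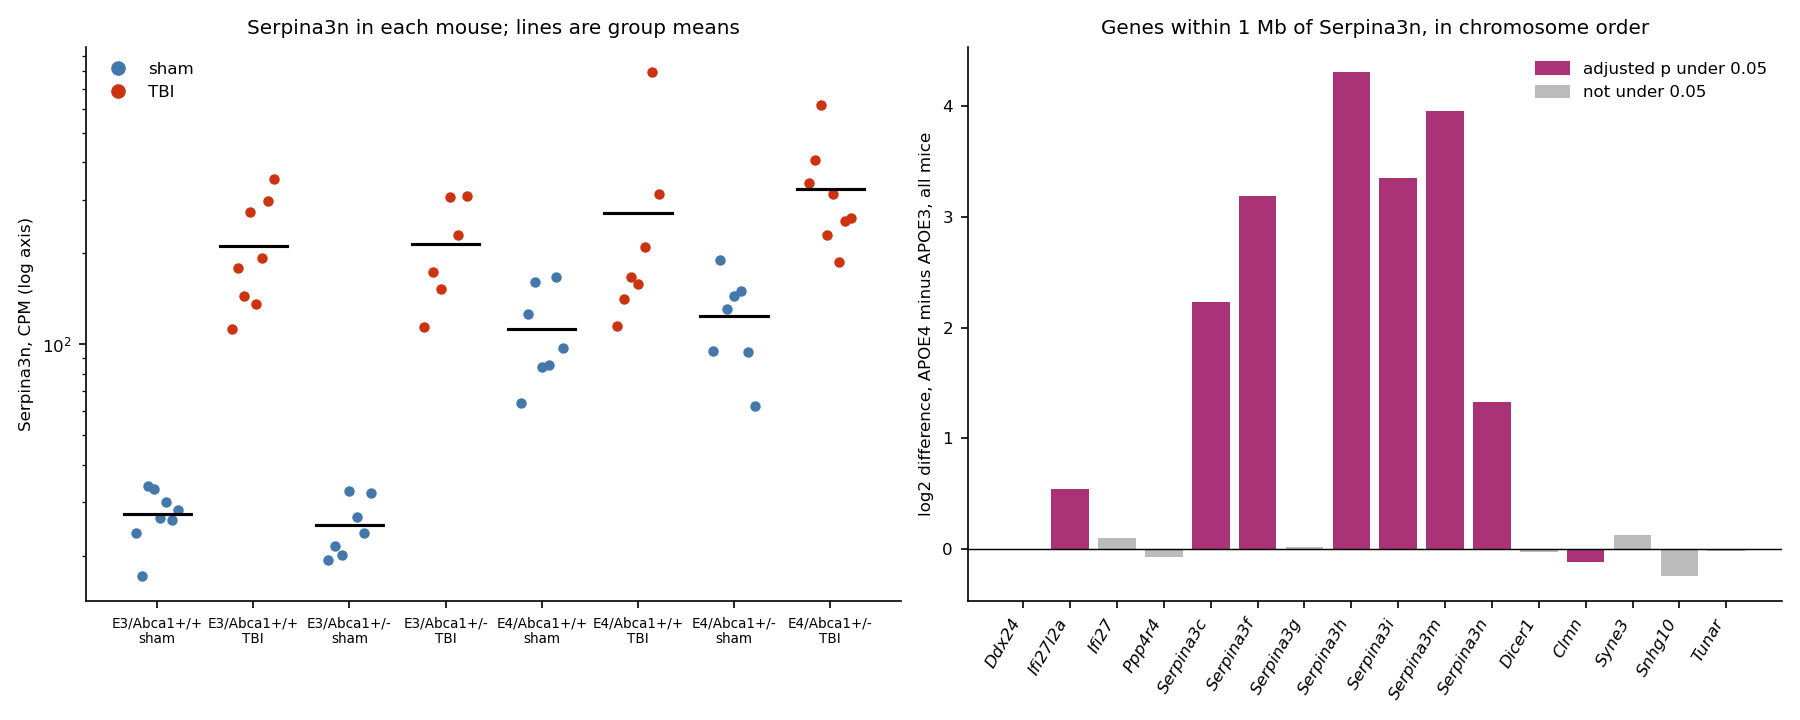
Left, Serpina3n CPM (log axis) in each mouse by group, with group means as lines; the APOE4 sham mice lie above all APOE3 sham mice, and the TBI groups overlap. Right, log2 difference between APOE4 and APOE3 mice, averaged over all groups, for Serpina3n and the 15 other genes within 1 Mb of it in chromosome order (purple, adjusted p under 0.05; grey, not called).

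Serpina3n lies in a cluster of near-identical serpin genes, so its neighbours on chromosome 12 were examined after its values had been seen. Of the 15 other measured genes within 1 Mb, 7 were called in the isoform effect averaged over groups, where 15.0% of all genes were, and 6 of them were higher in APOE4 mice. Serpina3m (log2 difference 3.96, adjusted p = 6.79e-21), Serpina3h (4.31, adjusted p = 3.78e-17), Serpina3f (3.19), Serpina3i (3.35) and Serpina3c (2.23) had larger differences than the 1.33 of Serpina3n, and Ifi27l2a (0.54, adjusted p = 0.0202, edgeR) a smaller one. All of these average sham and TBI mice, and in sham mice alone Serpina3n differed by 2.04 and 2.31. In APOE3 sham mice the medians of Serpina3h, Serpina3f, Serpina3i and Serpina3c were 0.106, 0, 0 and 0.0747 CPM. At levels so near 0 the size of their differences is uncertain. Serpina3m had 0.0709 to 0.464 CPM in APOE3 and 2.43 to 9.29 in APOE4 sham mice, and 0.517 to 2.97 in APOE3 and 5.32 to 38.3 in APOE4 TBI mice, so that its isoform groups were apart after injury as well. Serpina3g, in the same cluster, did not differ detectably (0.01, adjusted p = 0.975, edgeR), nor did Ddx24, Ppp4r4, Dicer1, Syne3, Tunar, Snhg10 or Ifi27, and Clmn was slightly lower in APOE4 (−0.12, adjusted p = 0.0352). How reads were shared among these paralogs is not stated, so single values in the cluster are uncertain.

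To ask whether a missing Abca1 copy changed the reactive astrocyte genes, Abca1+/- and Abca1+/+ mice were compared within each isoform and treatment. Of the 10 genes 0 were called in each of the 4 comparisons (edgeR), where 2.20% of all genes were called in APOE3 sham, 0.903% in APOE4 sham, 0.178% in APOE3 TBI and 1.39% in APOE4 TBI mice. At an unadjusted p under 0.05 the counts were 0, 3, 0 and 3 of 10, against 16.5%, 15.7%, 8.99% and 18.2% of all genes. The count in APOE4 sham mice was 2 without E4/Abca1+/- sham replicate 2, and that in APOE4 TBI mice was 9 without E4/Abca1+/+ TBI replicate 6. In this last fit the genes called over the whole table at the adjusted threshold also rose, from 211 to 786. The share of all genes at an unadjusted p under 0.05 was not counted there. DESeq2 and edgeR's exact test also called 0 in all 4, as did edgeR with all libraries thinned to the lowest total. In APOE4 sham mice the 3 genes were Gfap (0.55 higher in Abca1+/-, adjusted p = 0.116), Vim (0.56, adjusted p = 0.176) and Lcn2 (2.41, adjusted p = 0.286). Without E4/Abca1+/- sham replicate 2 these were 0.36, 0.33 and 0.03.

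In injured APOE4 mice, Abca1+/- mice had the higher mean for 9 of the 10 genes, as they did among the 4 injured groups as a whole. Among the 4 sham groups, E4/Abca1+/- mice also had the highest mean for 9 of the 10 genes, all but Cd44. The share of all genes with their highest mean in E4/Abca1+/- mice was not counted, so these counts cannot be set against it. Most of the genes moved together across injured mice, so such counts are not counts of separate observations. In E4/Abca1+/- TBI mice Gfap was 0.57 higher (SE 0.21, adjusted p = 0.160), Vim 0.71 (SE 0.27, adjusted p = 0.176) and S1pr3 0.66 (SE 0.30, adjusted p = 0.254, all edgeR) than in E4/Abca1+/+ TBI mice, none past the threshold. The groups overlapped, and E4/Abca1+/+ TBI replicate 6 was among the highest 5 injured mice for each of the 10 genes. Without that mouse Gfap (0.73, adjusted p = 0.0427) and Vim (1.00, adjusted p = 0.0266, edgeR) were called, among 786 genes in all, against 211 with it. In a single fit over all 58 mice, which shares the spread of all groups, Gfap (adjusted p = 0.0279), Vim (adjusted p = 0.0237) and S1pr3 (adjusted p = 0.0427) were called, and over all alternatives the adjusted p ranged from 0.0279 to 0.261, 0.0237 to 0.293 and 0.0427 to 0.409 for the 3 genes. The difference of the injury effect between Abca1 genotypes was called for 0 genes in either isoform, with 0 of 10 members at an unadjusted p under 0.05, against 2.15% of all genes in APOE3 and 4.84% in APOE4 mice. Averaged over isoform and injury, 0 of the 10 genes were called between Abca1 genotypes (edgeR, 17.9% of all genes), with Gfap at 0.24 (adjusted p = 0.0571) and Vim at 0.29 (adjusted p = 0.0715). The summed microglia markers moved in the same way: 911 to 1449 CPM (median 1193) in E4/Abca1+/- and 670.0 to 1288 (median 787) in E4/Abca1+/+ TBI mice. Their part in the result was not tested.

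The groups held both sexes, so the sexes were compared in a fit of all mice that accounted for group. In sham mice Cd44 was the only member that differed, with 9.12 ± 2.83 CPM in males (SD, n = 15) and 5.26 ± 1.62 in females (n = 14), a log2 difference of 0.84 (SE 0.18, adjusted p = 0.0145, edgeR, with 0.488% of all genes called). The sexes overlapped, since males had 5.36 to 17.6 and females 3.51 to 10.1 CPM. This call rested on E3/Abca1+/+ sham replicate 2, the male with 17.6 CPM: without it the difference was 0.75 (adjusted p = 0.0520, edgeR, with 0.00683 to 0.0520 over the alternatives).

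The injury effect was smaller in males than in females for all 10 genes, but for Gap43 the difference was only −0.04 (adjusted p = 0.965, edgeR). Over all genes the median difference was −0.0046, and the share of genes with a smaller effect in males was not counted. At an unadjusted p under 0.05 the effect was smaller in males for 9 of the 10. Of all genes, 7.47% had such a p in either direction, but 0 genes of the table passed after adjustment (edgeR). The 9 genes moved together across mice, so they are not 9 separate observations. Cd44 had the smallest p of all genes (difference of the injury effect −1.16, SE 0.23, adjusted p = 0.128). Lcn2 (−3.96, SE 1.09) and Steap4 (−3.25, SE 0.94) differed more, but without E4/Abca1+/- sham replicate 2, a male with high levels of both, they were −1.86 and −1.68, and 6 of the 10 genes then had an unadjusted p under 0.05. For Serpina3n, 13 of 14 injured females and 4 of 15 injured males were above all sham mice. The highest sham mouse was again E4/Abca1+/- sham replicate 2, at 190.0 CPM, and the count without it was not made. Among APOE3 mice, all injured mice of both sexes (112 to 352 CPM) were above all sham mice (17.1 to 34.1 CPM). Within E4/Abca1+/+ TBI mice, the 4 males had 115 to 167 CPM of Serpina3n and the 3 females 209 to 794.

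**Figure D4:**
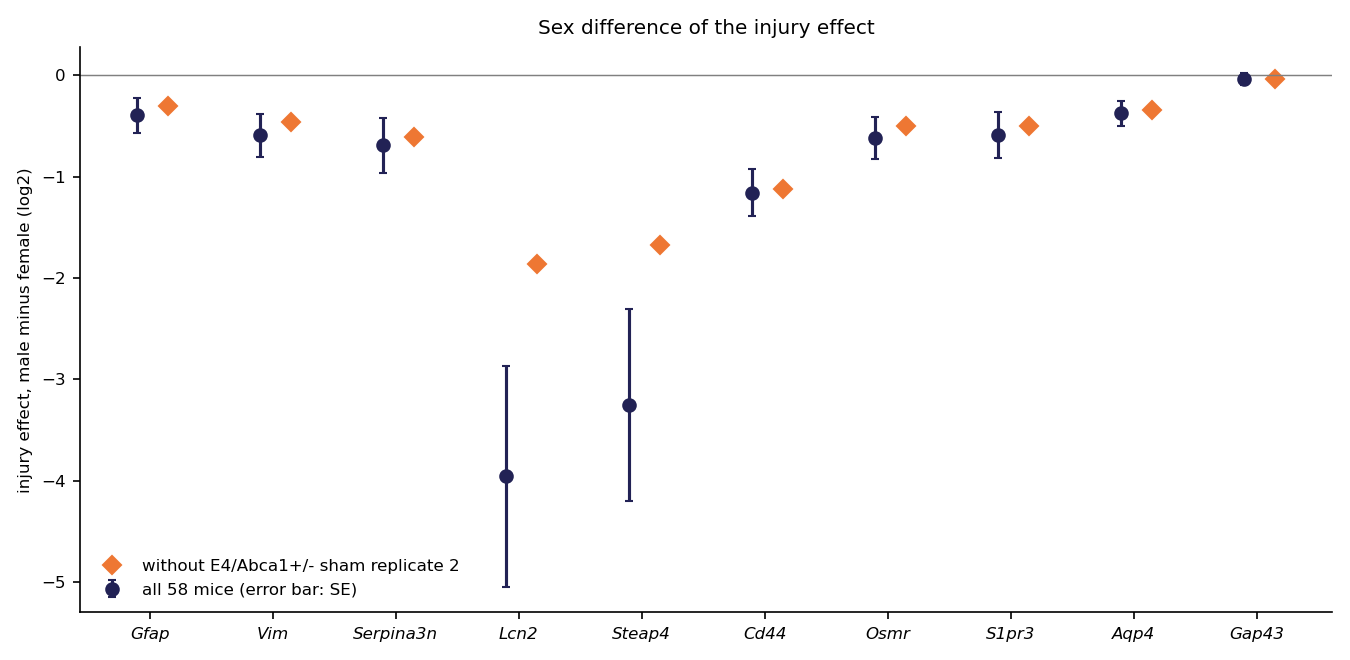
Difference of the injury effect between males and females (y axis, log2; negative values mean a smaller effect in males) for each of the 10 genes (x axis), in all 58 mice (dark points, error bars SE) and without E4/Abca1+/- sham replicate 2 (orange). All points lie below 0, and those of Lcn2 and Steap4 move most when that mouse is left out.

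Injured mice differed in the strength of the response, and the 9 genes that rose varied together. With group means removed, the Pearson correlation of log2(CPM + 1) between pairs of these genes over the 29 TBI mice had a median of 0.898 (36 pairs, 0.812 between Gfap and Serpina3n to 0.960 between Lcn2 and Steap4), and the median Spearman correlation was 0.872. When the 2 outermost mice (E4/Abca1+/- TBI replicate 3 and E4/Abca1+/+ TBI replicate 6) were left out, the median was 0.854 (0.723 to 0.947). Gap43 correlated weakly and negatively with all 9 (median −0.203). All these values come from the same libraries, whose total counts correlated with the 9 genes at −0.311 to −0.119. E4/Abca1+/- TBI replicate 3 had the highest level of 8 of the 10 genes among injured mice, and E4/Abca1+/+ TBI replicate 6 was among the highest 5 for all 10.

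**Figure D5:**
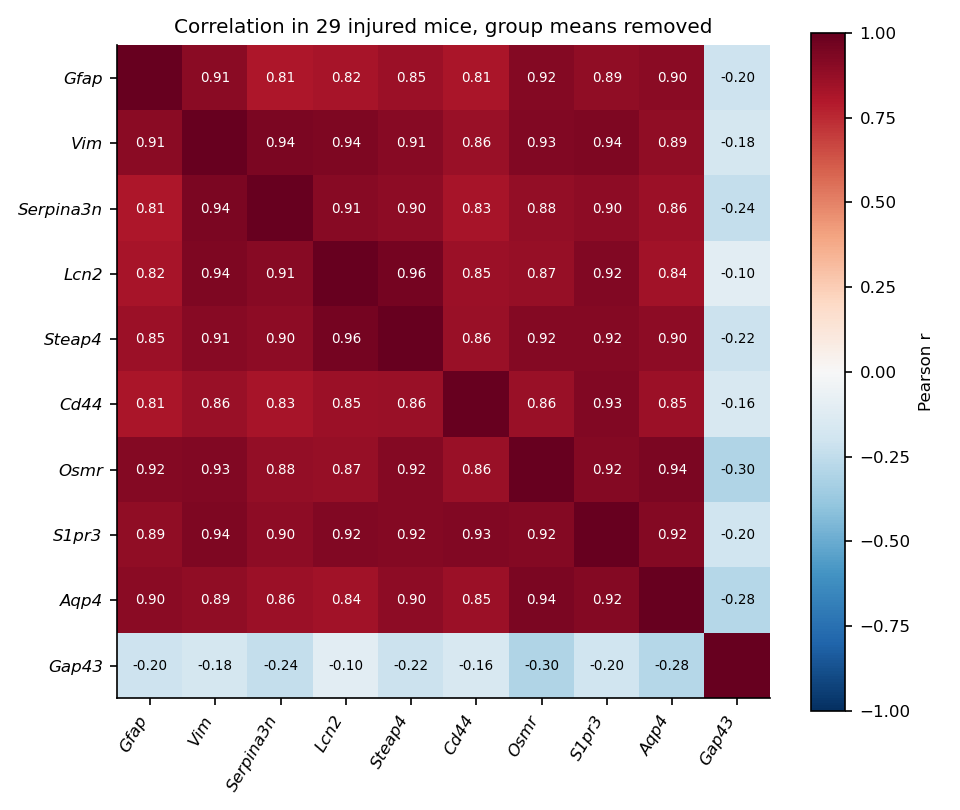
Pearson correlation of log2(CPM + 1) between each pair of the 10 genes over 29 injured mice after the group means were removed (colour scale from −1 to 1, values in the cells). The 9 genes that rose correlate at 0.812 or above with each other, and Gap43 correlates negatively with all of them.

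Among 14380 genes with a mean of at least 1 CPM, those most like each member over the same mice were listed. Lcn2 and Steap4 were both most like the complement gene C3 (0.975 and 0.985), followed by the lysozyme gene Lyz2 for Lcn2 (0.961) and the ceruloplasmin gene Cp for Steap4 (0.968). Gfap was most like the tetraspanin Cd63 (0.955) and Mlc1 (0.936), a membrane protein of astrocyte endfeet. Vim was most like Slc43a3 (0.964) and Cnn3 (0.958), and Serpina3n most like Cnn3 (0.937) and Rnase4 (0.925). The surface proteins were most like Timp1 and Ptx3 (Cd44, 0.922 for both), Tnfaip2 (0.942) and Pdpn (0.938; Osmr), and Pdpn (0.957) and A2m (0.956; S1pr3), and Aqp4 like Anxa5 and A2m (0.936 for both). Gap43 was instead most like Mdh2 (0.769) and Bex3 (0.758).

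Markers of other cell types moved with injury as well. The 8 microglia markers summed to 362 to 565 CPM in sham and 670.0 to 1449 in TBI mice, and all 8 were higher after TBI averaged over genotypes, such as C1qa by 2.13 and Cx3cr1 by 0.99. The 7 macrophage markers summed to 4.70 to 22.4 and 6.67 to 45.6 CPM. Of 8 neutrophil markers only S100a8 and S100a9 were measured, at a summed 0 to 1.07 CPM in sham and 0.289 to 17.9 in TBI mice. The 8 neuron markers fell, from 8712 to 9848 CPM in sham to 6383 to 8759.5 in TBI mice, with 7 of 8 lower, such as Snap25 (−0.37). Over the 29 injured mice the 9 genes correlated at 0.771 to 0.874 with the summed microglia markers, 0.614 to 0.774 with the macrophage markers, 0.681 to 0.840 with the neutrophil pair and −0.780 to −0.661 with the neuron markers, and at 0.341 to 0.561 with the 15 genes of resting astrocytes. The part of these cells in the results was not tested.

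Resting astrocyte genes also rose: 14 of 15 were higher after TBI averaged over genotypes and 0 lower, against 29.0% of all genes, but with a median log2 difference of 0.21. Slc1a3, a glutamate transporter, rose by 0.56 (SE 0.04) and Gja1, a gap junction protein, by 0.54 (SE 0.04, adjusted p at most 2.42e-16, edgeR). Their summed level was 8287 to 10142 CPM in sham and 8784 to 13469.7 in TBI mice, with overlap.

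Other genes of the pathways around the members were counted in the injury effect averaged over genotypes (edgeR, 29.0% of all genes higher and 24.3% lower). Of 9 measured genes shared by reactive astrocytes of all kinds, 7 were higher and 0 lower (median 1.52), among them the chemokine Cxcl10 (4.53, SE 0.26) and S100a6 (1.52, SE 0.09). Of 11 genes described after lipopolysaccharide, 9 were higher and 0 lower (median 1.82), with Gbp2 at 2.19 and the antigen-presenting H2-D1 at 1.85. Of 11 described after ischaemia, 9 were higher, among them Tgm1 (5.47) and Cd14 (1.83), and 1 was lower, the prostaglandin enzyme Ptgs2 (−0.41).

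Of 7 listed IL-6 family ligands only 2 were measured, and both rose averaged over genotypes: Ctf1 by 0.83 and Lif by 0.60. Neither of them is oncostatin M, the ligand of Osmr. Of 12 receptors and JAK-STAT3 genes, 6 were higher, including Stat3 (0.50, SE 0.05) and Il6ra (0.69, SE 0.07), and 0 lower. Beside Gfap and Vim, the 9 other filament genes split: Nes (0.36) and Des (0.34) were among 3 that rose, while the neuronal neurofilaments Nefm (−0.55) and Nefh (−0.50) were among 5 that fell. Of 9 genes that anchor Aqp4, 5 rose, among them Mlc1 (0.70) and Hepacam (0.32), and Dmd, the dystrophin gene, fell (−0.09).

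Around Cd44, 6 of 9 hyaluronan genes rose and 1 fell: the scavenger receptor Stab1 (1.27) and the synthase Has2 (0.96) were higher and the synthase Has3 lower (−0.31). Around S1pr3, 3 of 10 sphingosine 1-phosphate genes rose, which is near the share of all genes that rose (29.0%). Among these 3 were the lyase Sgpl1 (0.71) and the receptor S1pr2 (0.71), and the exporter Spns2 fell (−0.17). Of 11 genes of lipocalin 2 and iron handling, 6 rose, with heme oxygenase Hmox1 at 1.50 and ferritin Ftl1 at 0.92, and 2 fell, the transferrin receptor Tfrc (−0.36) and the iron importer Slc11a2 (−0.07). Of 9 axon growth genes, 4 rose and 0 fell. Among these, Atf3, a transcription factor of injured neurons, rose by 2.40 (SE 0.18, adjusted p = 2.46e-17, edgeR) and Marcks by 0.24, while Gap43 itself was at 0.11.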

How the data were processed

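RNA from the hippocampus and cortex of 58 mice in 8 groups was sequenced on an Illumina HiSeq instrument. The authors deposited whole-number read counts per gene, which were not normalized. The submitters' processing notes name Subread and featureCounts 1.5.0, edgeR and the build mm10, and the annotation and strand setting are not given in the sources used here, so counts of overlapping and near-identical genes are uncertain. The table held 15171 genes after 2 blank lines were dropped, and 23 symbols turned into dates were renamed by gene identifier. RefSeq annotation of GRCm38.p6 gave positions, and GENCODE annotation of mouse genes gave transcript lengths (14711 genes with a length, 97.0%). Of 1653 pairs of mice, 0 had identical counts.

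Counts were scaled with TMM factors and tested with edgeR 4.0.16 (quasi-likelihood test, R 4.3.3) at a Benjamini-Hochberg adjusted p under 0.05 over all genes. Fits held the groups compared, and the effects averaged over groups and the sex tests held all mice. The filter filterByExpr removed 0 genes. Fitted fold changes used a prior count of 0.125. Alternatives were DESeq2 1.42.0 (its size factors, and its Wald test), the exact test of edgeR, unfiltered genes, a sex covariate, 1 fit of all 58 mice together, thinning to the lowest total, and each mouse left out. Some were chosen after seeing the data, namely a filter per fit, DESeq2's likelihood ratio test in place of a Wald test for equal injury effects, thinning for the averaged effects, and the fits of other comparisons without any 1 of 4 mice: E4/Abca1+/- sham replicate 2, E4/Abca1+/- TBI replicate 8, E3/Abca1+/+ sham replicate 2 and E4/Abca1+/+ TBI replicate 6. Sham levels per length were also computed without the first of these. The tests were tested on simulated data. Correlations used log2(CPM + 1), with Python 3.11.15, pandas 2.3.3, numpy 2.4.6 and matplotlib 3.10.9.

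The members and lists were chosen with earlier results of these data known. Named genes are the 10 members, at most 2 genes of each list in each direction with the smallest p in the averaged injury effect, and the 2 genes most correlated with each member. Abca1, the neighbours of Serpina3n and the mice left out singly were named after their values were seen.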

Additional observations from a re-analysis of the deposited data

Results flagged for a closer look

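Among 80 sets of a gene in a group, 10 held a mouse whose distance to its nearest neighbour was a large share of the range of the group (Dixon's criterion). For independent, normally distributed values about 1 in 20 sets would pass this limit. Here CPM was not log-transformed and 1 mouse gave 5 of the 10 sets, so the count cannot be compared with that rate.

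E4/Abca1+/- sham replicate 2 was the highest of its group in 5 of them, with 84.7 CPM of Vim, 16.1 of Lcn2, 9.04 of Steap4, 12.2 of Osmr and 20.1 of S1pr3. E4/Abca1+/+ TBI replicate 6 had 794 CPM of Serpina3n and 61.3 of Cd44. Single values stood out in E3/Abca1+/+ sham replicate 2 (Cd44, 17.6 CPM), E3/Abca1+/+ sham replicate 8 (Lcn2, 1.79 CPM) and E4/Abca1+/+ sham replicate 3 (Steap4, 1.05 CPM).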

How the results depend on the processing

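Of 1932 values of single genes under an alternative, 1872 kept their direction and side of the threshold, 14 gained and 8 lost a call, and 38 values of 23 comparisons, of which 0 were called either way, changed sign. With each mouse left out in turn, 9 to 10, 9 to 9, 8 to 9 and 9 to 9 members were called after TBI in E3/Abca1+/+, E3/Abca1+/-, E4/Abca1+/+ and E4/Abca1+/- mice. The single fit over all mice called 3 members between Abca1 copies in injured APOE4 mice (1359 genes in all, against 211) and 1, Osmr, between isoforms in injured Abca1+/- mice (0.69, adjusted p = 0.0377, edgeR, with values up to 0.301 over the alternatives). Without E4/Abca1+/+ TBI replicate 6, 2 members were called between Abca1 copies in injured APOE4 mice and 2 in the averaged Abca1 effect (Gfap and Vim, against 0). The genes called in all were then 786 (against 211) and 2932 (against 2712). Between isoforms in Abca1+/- sham mice, the exact test and sex as a covariate called 2 members, Serpina3n and Lcn2 (Lcn2 at 3.08, adjusted p = 0.0706 in edgeR's quasi-likelihood test, 0.0147 to 0.368 over the alternatives, and at 0.68 without E4/Abca1+/- sham replicate 2). Equality of the injury effects was rejected for 1 member, Serpina3n, with thinned libraries, by DESeq2's likelihood ratio test and without E4/Abca1+/+ TBI replicate 6 (adjusted p = 0.0227, 0.0207 and 0.000126). Without E3/Abca1+/+ sham replicate 2, 0 members differed by sex in sham mice (edgeR, 3 at an unadjusted p under 0.05). Without E3/Abca1+/+ TBI replicate 8, Gap43 was called in that genotype (0.13, adjusted p = 0.0467, edgeR, up to 0.337 over the alternatives). Thinning reduced the genes called after TBI from 3539, 3607, 2132 and 5161 to 2304, 966, 1407 and 1892. The values that changed sign were differences between Abca1 copies or isoforms, as follows on the log2 scale. With thinned libraries they were, between Abca1 copies, Steap4 (0.26) and Osmr (−0.22) in APOE3 sham, Serpina3n (−0.0092) and Aqp4 (−0.031) in APOE4 sham, Serpina3n (−0.010) in APOE3 TBI, Gap43 (0.017) in APOE4 TBI mice and Gap43 (0.016) on average, and, between isoforms, Steap4 (−0.26) and Osmr (−0.046) in Abca1+/+ sham mice and Cd44 (0.016) on average. With sex as a covariate they were, between Abca1 copies, Cd44 (0.16) and Aqp4 (−0.0030) in APOE4 sham and Serpina3n (−0.034) in APOE3 TBI mice, and, between isoforms, Gap43 (−0.0016) in Abca1+/+ sham mice. With DESeq2's size factors they were Osmr (−0.0021) in APOE3 sham and Gfap (0.00056) in APOE3 TBI mice between Abca1 copies. With DESeq2's Wald test they were Steap4 (−0.54) in APOE4 sham and Gfap (0.00058) in APOE3 TBI mice between Abca1 copies, and Steap4 (−0.043) in Abca1+/- sham and Lcn2 (0.0031) in Abca1+/+ TBI mice between isoforms. The exact test changed this last value to 0.0040, and the single fit changed Aqp4 in APOE4 sham mice between Abca1 copies to −0.00054. Without E3/Abca1+/+ sham replicate 2, Cd44 was 0.092 and Osmr −0.057 between Abca1 copies in APOE3 sham mice, and Cd44 was 0.0061 between isoforms in Abca1+/+ sham mice. Without E4/Abca1+/- sham replicate 2, Steap4 was −0.56 and Aqp4 −0.058 between Abca1 copies in APOE4 sham mice, and Steap4 was −0.030 and S1pr3 −0.027 between isoforms in Abca1+/- sham mice. Without E4/Abca1+/+ TBI replicate 6, Serpina3n was −0.19 between isoforms in Abca1+/+ TBI mice, and without E4/Abca1+/- TBI replicate 8, Gap43 was −0.0018 between isoforms in Abca1+/- TBI mice. Leaving out any 1 of these 4 mice, the average isoform difference of Cd44 ranged from −0.073 to 0.069, and the average Abca1 difference from −0.033 to 0.71 for Steap4, from −0.063 to 0.049 for Cd44 and from −0.0041 to 0.0022 for Gap43. The causes were not tested. No paired analysis was possible because the labels give no replicate numbers shared between groups.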

Other observations

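Markers of further cell types and of brain regions were counted in the injury effect averaged over genotypes (edgeR), in which 29.0% of all genes were higher and 24.3% lower. Of 8 oligodendrocyte markers 3 were higher and 0 lower, among them Cldn11 (0.26) and Mbp (0.12). Of 6 endothelial markers 4 were higher, such as the tight junction gene Cldn5 (0.32) and the transporter Slco1a4 (0.30), and of 7 pericyte and fibroblast markers 5, such as the collagen Col1a1 (0.90) and Vtn (0.38). Of 6 ependyma and choroid plexus markers, only Foxj1, a regulator of cilia, was higher (1.13), and the summed level ranged from 13.7 to 1317 CPM in sham mice.

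Of 10 cortex markers 7 were lower and 0 higher, with Lamp5 at −0.90 and Rasgrf2 at −0.30. Of 10 hippocampus markers 3 were lower, among them Dsp (−0.86) and Lct (−0.79), and Wfs1 was higher (0.27). The summed hippocampus markers spanned 329 to 483 CPM in sham and 252 to 529 in TBI mice, and correlated with the 9 reactive genes that rose at −0.0550 to 0.103 over injured mice. The summed cortex markers correlated with the same 9 genes at −0.571 (Lcn2) to −0.278 (Cd44). The part of the brain regions in the results was not tested.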
